A study of Mus musculus with 12 samples.

Results

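The genes of 10 ionotropic glutamate receptor subunits were followed along the mouse cochlea: the AMPA receptor subunits Gria1, Gria2, Gria3 and Gria4, the NMDA receptor subunits Grin1, Grin2a and Grin2b, and the kainate receptor subunits Grik2, Grik4 and Grik5. A gene was included where the array design gives its symbol as the name of a measuring probe, and all 10 symbols were found, among 19505 genes in all. They were measured by 158 of the 165865 probes of 60 bases used here. RNA came from untreated male C57BL/6 mice aged 6 weeks, a wild-type inbred strain. The groups differed in the piece of cochlea taken, the apical, the middle or the basal turn, and each turn was also on its own slide. There were 4 arrays for each of the 3 turns, with 25 ng of total RNA per array. Each piece held the lateral wall and the organ of Corti, and by the study's methods also the spiral ganglion neurons. The tissue came from 4 mice, and the sources do not say which arrays of different turns share a mouse.

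Ionotropic glutamate receptors are ion channels built of several subunits that open when glutamate binds. In the cochlea the inner hair cells release glutamate from ribbon synapses onto the terminals of spiral ganglion neurons, and AMPA receptors, known at this synapse to hold the products of Gria2, Gria3 and Gria4, carry the fast response. NMDA receptors need the product of Grin1 in every channel together with glutamate-binding subunits such as those of Grin2a and Grin2b, while the kainate subunits encoded by Grik4 and Grik5 form channels only with partners such as the product of Grik2. The cochlea is laid out by pitch, with low frequencies detected at the apex and high frequencies at the base, and the comparison of turns asks how gene expression changes along that axis.

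Whether a probe reads 1 subunit or several depends on its sequence, and AMPA receptor genes are very alike around the flip and flop exons, a pair of alternative exons of which each transcript carries either form. The 6 probes in these exons are printed here because each was read as flip or flop from its translation, but shares bases with other genes. How far they separate the forms on the array was not tested. Each is written 5′ to 3′ as deposited, with the longest run of bases shared with a probe of another AMPA subunit among these 6 in capitals. They lie at chr11:57123296-57123355 (Gria1 flop) and chr11:57124156-57124215 (Gria1 flip) on the plus strand, chr3:80495262-80495321 (Gria2 flop) on the minus strand, chrX:39022722-39022781 (Gria3 flip) on the plus strand, and chr9:4432790-4432849 (Gria4 flop) and chr9:4427035-4427094 (Gria4 flip) on the minus strand, all in mm9.
Gria1 flop: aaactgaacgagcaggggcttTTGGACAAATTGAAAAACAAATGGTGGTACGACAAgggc
Gria1 flip: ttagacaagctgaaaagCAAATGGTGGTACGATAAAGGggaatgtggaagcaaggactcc
Gria2 flop: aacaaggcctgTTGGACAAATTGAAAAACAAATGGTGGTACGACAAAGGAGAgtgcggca
Gria3 flip: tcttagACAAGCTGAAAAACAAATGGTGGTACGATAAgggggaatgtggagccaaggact
Gria4 flop: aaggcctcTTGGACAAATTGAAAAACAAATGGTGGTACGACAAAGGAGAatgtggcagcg
Gria4 flip: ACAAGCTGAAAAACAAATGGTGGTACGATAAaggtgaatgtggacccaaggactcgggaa
The Gria2 and Gria4 flop probes shared a run of 41 bases and were identical at 54 of the 57 bases over which they overlap. The Gria3 and Gria4 flip probes shared a run of 31 bases, with 51 of 54 overlapping bases identical. The flop and flip probes of Gria4 shared a run of 22 bases, with 40 of 48 overlapping bases identical. The array's own annotation lists transcripts of Gria2 for both Gria4 probes, and of Gria2 and Gria4 for the Gria3 flip probe. The signal of these 3 probes can therefore not be assigned to a single subunit. The Gria1 flop, Gria1 flip and Gria2 flop probes list only their own gene there, but they also share runs of bases with probes of other subunits. Among all 158 probes, 8 shared a run of 20 bases or more with a probe of another gene, and 6 of these 8 are the flip and flop probes.

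A further 7 probes are printed because the comparison of apex with base set them apart from the other probes of their gene. For Gria1, Gria2, Grin1 and Grik4 they are the farthest in either direction within the first 2900 bases of the transcript, other than flip and flop probes. No base is in capitals.
Gria1, chr11:57042468-57042527, plus strand: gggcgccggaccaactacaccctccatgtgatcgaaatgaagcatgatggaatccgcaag
Gria2, chr3:80510843-80510902, minus strand: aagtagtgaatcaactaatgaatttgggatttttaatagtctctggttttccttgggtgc
Gria2, chr3:80514671-80514730, minus strand: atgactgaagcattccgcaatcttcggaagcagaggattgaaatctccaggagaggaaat
Grin1, chr2:25153149-25153208, minus strand: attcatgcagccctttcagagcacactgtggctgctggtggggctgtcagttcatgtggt
Grin1, chr2:25168999-25169058, minus strand: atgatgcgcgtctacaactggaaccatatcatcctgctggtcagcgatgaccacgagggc
Grik4, chr9:42479221-42479280, minus strand: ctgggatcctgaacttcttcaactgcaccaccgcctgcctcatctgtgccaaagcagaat
Grik4, chr9:42345434-42345493, minus strand: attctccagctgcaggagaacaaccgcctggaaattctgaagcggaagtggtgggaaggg
Their GC content was between 35% and 55%, against a median of 45% and a range from 33.3% to 78.3% over the 158 probes.

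Values are fluorescence intensities in arbitrary units, scaled so that the 75th percentile of every array is the same; a gene's value is the geometric mean of its probes. Such values cannot be compared between genes or between probes, only between turns. Slides coincided with turns, 4 arrays to a slide, so slide and turn cannot be told apart in the comparisons that follow. On the 12 arrays the 75th percentile before scaling lay between 534.6 and 722.1, and 77.4% to 81.4% of spots were well above background. Basal replicates 2 and 3 lay at the ends of the basal range for the neuron, Schwann cell and hair cell marker lists. The 6 subunit genes that passed are therefore also given without them. Since whole pieces of tissue were measured, fewer cells of a type and less RNA per cell cannot be told apart.

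Of the 10 subunit genes, 6 were higher at the apex than at the base and none was lower, by limma's test with an adjusted p under 0.05 over all genes, against 17.6% of all genes higher at the apex and 21.6% lower. The 6 were Gria2, Gria3, Gria4, Grin1, Grik2 and Grik4, and Gria1, Grin2a, Grin2b and Grik5 did not pass. The median log2 difference of the 10 genes, apex minus base, was 0.54, beside -0.04 over all genes. All 4 apical arrays lay above all 4 basal arrays for 5 of the 10 genes, against 16.9% of all genes. The split of all passing genes depends on the scaling, at 3440 higher at the apex and 4205 higher at the base as scaled here, 2267 and 6290 with each array scaled to its median, and 775 and 14334 with each array scaled to its spike-in control probes. Scaling to the spike-in probes placed the median of all genes at -0.52, and on that scale Gria2, Gria3, Gria4 and Grin1 were still higher at the apex while Grik2 turned to -0.12, Grik4 did not pass, and Gria1, Grin2a, Grin2b and Grik5 passed as higher at the base. With probes averaged on the linear scale before the log2, which follows the brightest probes, 4 subunit genes were higher at the apex and 2 at the base, Gria1 at -0.26 and Grin2a at -0.17.

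The AMPA subunit gene Gria2, whose edited product keeps calcium out of the channel, had the largest fold of the 10 as scaled here. With 16 added before the log2, Gria4 was ahead of it. After normexp background correction the log2 difference was 0.56 for Gria2, below 0.93 for Gria4, 0.65 for Grin1 and 0.64 for Gria3. The Gria2 probes span chr3:80493025-80606278 in mm9. The signal was 74.8, 57.5, 77.2 and 48.5 on the 4 apical arrays, 85.2, 48.9, 52.3 and 38.6 on the middle arrays, and 24.6, 8.8, 42.1 and 17.4 on the basal arrays. Every apical array lay above every basal array, but basal replicate 3 lay above the lowest middle array. The turn means were 64.5 ± 14, 56.3 ± 20 and 23.2 ± 14 (SD, n = 4 arrays each). The apex exceeded the base 3.17-fold, a log2 difference of 1.66 ± 0.41 (SE) with an adjusted p of 0.0073. The middle turn exceeded the base 2.70-fold with an adjusted p of 0.029, and apex and middle differed by 0.23 ± 0.41 on the log2 scale with an adjusted p of 0.73. The difference between apex and base was 2.02 on the log2 scale without basal replicate 3, 1.27 without basal replicate 2, and 1.61 without both, and it passed each time. The middle turn no longer passed against the base without basal replicate 2, where the log2 difference was 1.04 with an adjusted p of 0.061, nor without basal replicate 4 or middle replicate 1 or 2. In the base 1 of the 15 Gria2 probes was well above background on all 4 arrays, against 13 at the apex, so the basal level is close to the limit of the measurement.

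Gria4, which encodes a fast-gating AMPA subunit, was also higher at the apex and in the middle turn than at the base. Its probes span chr9:4417896-4795271 in mm9. Apical arrays gave 251, 181, 252 and 201, middle arrays 343, 196, 196 and 163, and basal arrays 78.8, 44.8, 160 and 58.6. All arrays of the apex and the middle turn lay above all arrays of the base, with basal replicate 3 closest to them. The means were 221 ± 36 at the apex, 224 ± 80 in the middle and 85.5 ± 51 at the base. The apex was 2.89-fold over the base (log2 difference 1.53 ± 0.35, adjusted p 0.0049) and the middle turn 2.84-fold over the base (adjusted p 0.012). Apex and middle differed by 0.03 ± 0.35 on the log2 scale, which is less than the spread between arrays. Without basal replicate 3 the log2 difference between apex and base was 1.89, without replicate 2 it was 1.28 and without both it was 1.69, each with an adjusted p below the threshold.

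Gria3, the X-linked AMPA subunit gene, changed less and more evenly. Its probes span chrX:38754773-39025643 in mm9. Apical arrays gave 287, 244, 298 and 255, middle arrays 326, 242, 230 and 195, and basal arrays 152, 118, 189 and 134. No basal array reached any apical or middle array. The means of 271 ± 26, 248 ± 55 and 148 ± 30 put the apex 1.85-fold over the base (log2 difference 0.89 ± 0.17, adjusted p 0.0016) and the middle turn 1.67-fold over the base (adjusted p 0.011). The log2 difference between apex and base was 0.79 without basal replicate 2, 1.01 without replicate 3 and 0.92 without both, each past the threshold. Each of its 14 probes was well above background on all 12 arrays.

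Gria1, the remaining AMPA subunit gene, did not differ beyond the spread between arrays. Its probes span chr11:56825331-57143672 in mm9. Apical arrays gave 17.8, 15.1, 20.8 and 15.6, middle arrays 20.1, 19.5, 16.2 and 22, and basal arrays 18.2, 17.3, 19.5 and 19.6. The ranges of all 3 turns overlapped, and the log2 difference of -0.12 ± 0.11 between apex and base had an adjusted p of 0.49. As 13 of its 17 probes were well above background on none of the 12 arrays, the gene value is mostly background, and a change of the transcript could not be seen with most of these probes.

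**Figure D1:**
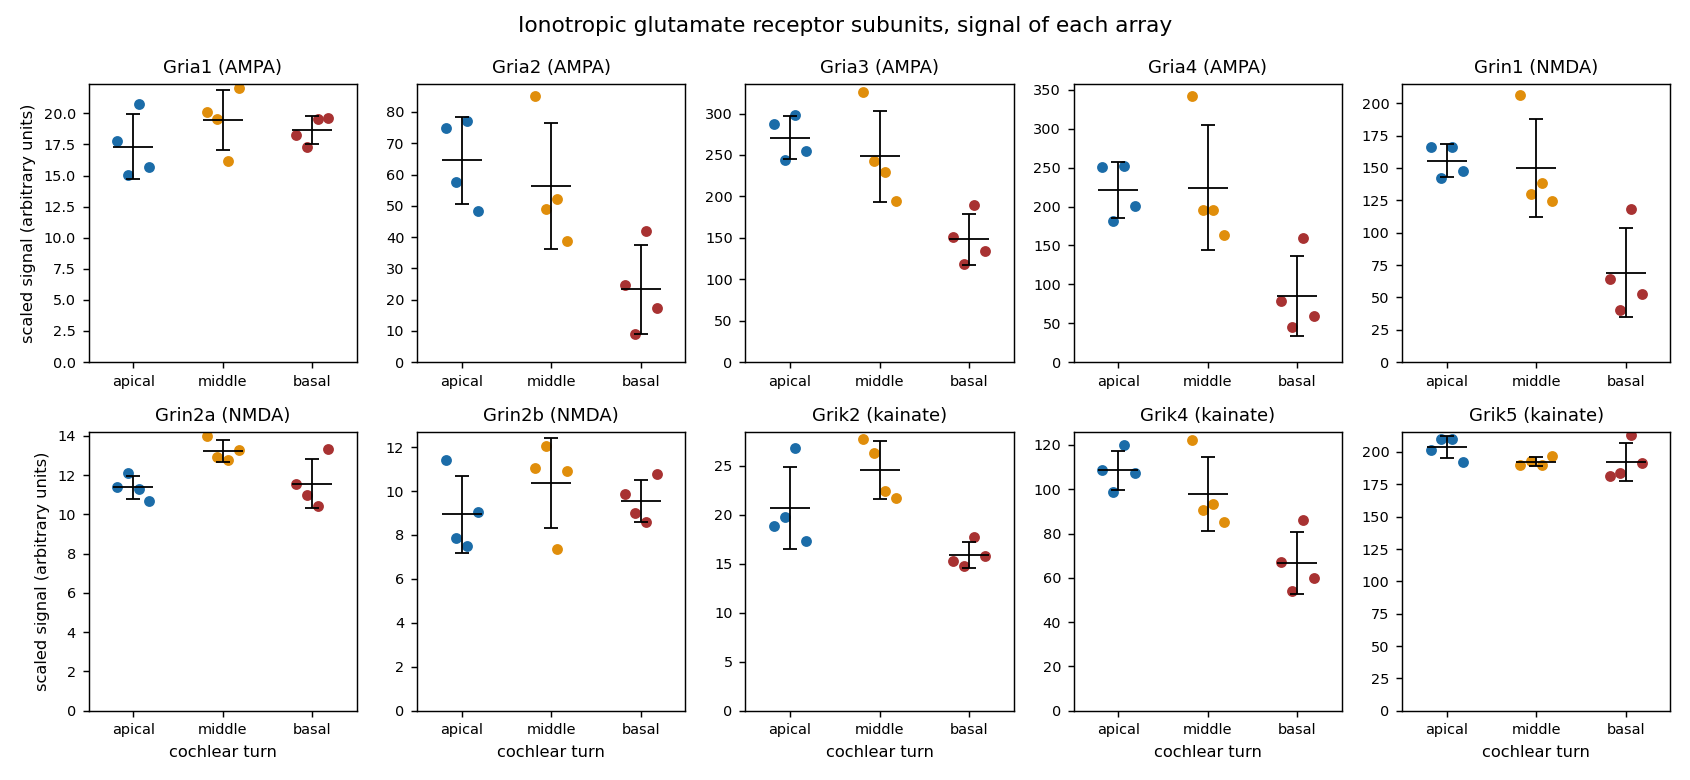
Scaled signal of the 10 subunit genes (vertical axis, arbitrary units, from 0) on each array, by cochlear turn; points are arrays and bars are the mean ± SD of 4 arrays. The basal arrays of Gria2, Gria3, Gria4, Grin1 and Grik4 lie below all apical arrays, while those of Gria1, Grin2a, Grin2b and Grik5 overlap the apical range.

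Among the NMDA subunit genes, Grin1 was higher toward the apex, and Grin2a and Grin2b did not pass between apex and base. Grin1 encodes the subunit that every NMDA receptor contains, and its probes span chr2:25147767-25174598 in mm9. Apical arrays gave 166, 142, 167 and 148, middle arrays 207, 130, 138 and 125, and basal arrays 64.4, 40.3, 118 and 52.9. No basal array reached an apical or a middle array. The means were 156 ± 13, 150 ± 38 and 69.0 ± 34, so that the apex was 2.44-fold over the base (log2 difference 1.29 ± 0.28, adjusted p 0.0035) and the middle turn 2.31-fold over the base (adjusted p 0.012). The log2 difference between apex and base was 1.59 without basal replicate 3, 1.07 without replicate 2 and 1.41 without both, and it passed each time.

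Grin2a and Grin2b encode glutamate-binding NMDA subunits. Grin2a gave 11.4, 12.1, 11.3 and 10.7 on apical arrays, 14, 12.9, 12.7 and 13.3 on middle arrays, and 11.5, 11, 10.4 and 13.3 on basal arrays. The 4 middle arrays lay above the 4 apical arrays, by a mean of 0.22 ± 0.07 on the log2 scale, with an adjusted p of 0.079; such separation was seen for 1 of the 10 genes and 13.5% of all genes. Grin2b gave 11.4, 7.9, 7.5 and 9.0 on apical arrays, 11.1, 12.1, 7.4 and 10.9 on middle arrays, and 9.9, 9.0, 8.6 and 10.8 on basal arrays, and all ranges overlapped. Between apex and base the log2 differences were -0.02 ± 0.07 for Grin2a and -0.11 ± 0.17 for Grin2b, with adjusted p of 0.87 and 0.67. On none of the 12 arrays were 9 of the 12 Grin2a probes and 10 of the 12 Grin2b probes well above background, so both gene values are mostly background. A single Grin2a probe, at chr16:9663274-9663333, was well above background on all 12 arrays. It gave 83.2, 91.4, 92.2 and 87.0 on apical arrays, 88.1, 115.6, 124.6 and 118.1 on middle arrays, and 105.9, 112.1, 136.2 and 107.8 on basal arrays. Its basal arrays lay above its apical arrays, with a log2 difference of -0.38 ± 0.12, apex minus base, and an adjusted p of 0.026 over all probes.

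The kainate subunit genes differed among themselves. Grik4, which encodes a high-affinity subunit and has probes spanning chr9:42328570-42616666 in mm9, gave 108.5, 98.7, 120 and 107.2 on apical arrays, 122, 90.4, 93.1 and 85.3 on middle arrays, and 67.0, 53.8, 85.9 and 59.8 on basal arrays. The apical arrays lay above the basal arrays, and basal replicate 3 just reached the lowest middle array. The apex was 1.65-fold over the base (log2 difference 0.72 ± 0.15, adjusted p 0.0025) and the middle turn 1.48-fold over the base (adjusted p 0.020). This call rests on how the probes are averaged: with linear averaging, the log2 difference between apex and base was -0.01 with an adjusted p of 0.83. It was 0.40 with only the probes well above background, 0.43 with 16 added before the log2 and 0.18 after normexp background correction, and 7 of the 18 Grik4 probes were well above background on no basal array. Without basal replicate 2 it was 0.63, without replicate 3 it was 0.85 and without both it was 0.78, each past the threshold.

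Grik2, which encodes a subunit able to form channels alone or with the products of Grik4 and Grik5, gave 18.9, 19.7, 26.8 and 17.3 on apical arrays, 27.7, 26.3, 22.4 and 21.7 on middle arrays, and 15.3, 14.7, 17.7 and 15.7 on basal arrays. Its middle arrays lay above all basal arrays, 1.54-fold on average (log2 difference 0.62 ± 0.13, adjusted p 0.0080), while apical and basal arrays overlapped. Between middle and base it did not pass with only the probes well above background (log2 difference 0.22, adjusted p 0.15) or with spike-in scaling (0.35). The log2 difference of 0.36 ± 0.13 between apex and base had an adjusted p of 0.046 and did not pass under 19 of 26 other settings, among them 8 of 12 with an array left out; it was 0.33 without basal replicate 2, 0.42 without replicate 3 and 0.40 without both, with adjusted p of 0.11, 0.039 and 0.11. Of its 14 probes, 5 were well above background on all 4 apical arrays and 2 on all 4 basal arrays.

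Grik5, the other high-affinity kainate subunit gene, was well above background and passed in no comparison of turns. It gave 202, 210, 210 and 192 on apical arrays, 190, 193, 190 and 197 on middle arrays, and 181, 184, 213 and 191 on basal arrays. The ranges overlapped, and basal replicate 3 was the highest of the 12 arrays. The log2 difference between apex and base was 0.08 ± 0.06 with an adjusted p of 0.30. For this gene 16 of 18 probes were well above background on all 12 arrays.

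**Figure D2:**
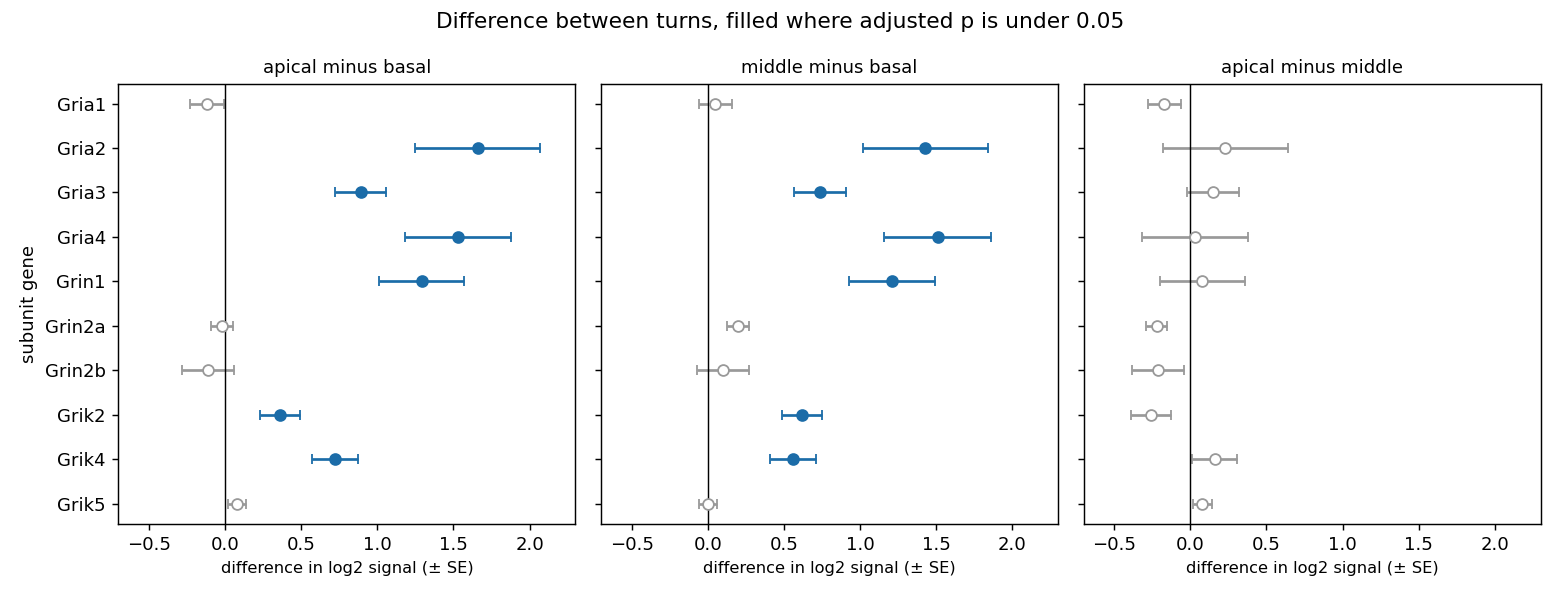
Difference in log2 signal between turns (horizontal axis, ± SE from limma) for each subunit gene, in a panel for each comparison; filled blue points have an adjusted p under 0.05. The same 6 genes are filled for apex minus base and middle minus base, with differences from 0.36 to 1.66 and from 0.56 to 1.51, and none is filled for apex minus middle.

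Read across the turns, subunit genes passed against the base and not between apex and middle. None of the 10 genes passed between apex and middle by limma's test, with log2 differences between -0.26 and 0.23, a lowest adjusted p of 0.079 and 1 gene at an unadjusted p under 0.05; 4.42% of all genes passed as higher at the apex and 7.59% as higher in the middle turn. The 6 genes that passed between apex and base also passed between middle and base, where 11.7% of all genes were higher in the middle turn and 9.21% at the base, and the median log2 difference was 0.59 for the subunits and 0.04 for all genes. These comparisons share arrays and are therefore not separate evidence. The middle arrays lay above the basal arrays without overlap for 4 of the 10 genes, against 12.5% of all genes. The study combined an analysis of variance with a fold limit. By limma's F test across the turns with an adjusted p under 0.05, together with a 2-fold difference between turns, 3 subunit genes passed, namely Gria2, Gria4 and Grin1, against 4.69% of all genes. This last call depends on background handling, since no subunit gene reached 2-fold after normexp background correction, which adds 50 to each signal before the log2, although 5 genes were then still higher at the apex by the adjusted p.

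Whether the subunits of a family shifted to the same degree was tested on their ratios. The log2 ratio of a pair of subunits of a family was compared between apical and basal arrays with an exact two-sided permutation test over arrays, for 12 pairs, with a smallest possible p of 0.0286. For Gria1 relative to Gria2 the ratio was 1.78 log2 units lower at the apex than at the base, relative to Gria4 it was 1.65 lower, and relative to Gria3 it was 1.00 lower. For Grin1 the ratio to Grin2a was 1.31 and that to Grin2b 1.40 log2 units higher at the apex, and for Grik4 the ratio to Grik5 was 0.64 higher. These 6 pairs and Grik2 relative to Grik5, at 0.28 log2 units higher at the apex, had an exact p of 0.0286, or 0.049 adjusted over the 12 pairs. Gria2 and Gria4 shifted by amounts that differed by 0.13 log2 units, with standard deviations of their ratio of 0.18 at the apex and 0.30 at the base and an exact permutation p of 0.543. Gria2 shifted 0.78 log2 units more than Gria3, with an exact permutation p of 0.0571 and 0.0762 after adjustment. With this smallest p, adjustment over 12 pairs lets a pair pass only where at least 7 pairs reach it, and no pair passed with quantile normalization, with the median of probes, with the mean linear signal, or with any apical array or basal replicate 1, 2 or 4 left out. The ratios that involve Gria1, Grin2a or Grin2b contain a gene near background, so they are ratios of signals and not of transcripts. The ratios of Grik2 have the same limit, as 2 of 14 Grik2 probes were well above background on all 4 basal arrays. For Gria2 it was 1 of 15 probes, so its ratios rest on a basal level close to background.

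The single probes show where the gene values come from. Of the 158 probes, 75 were higher at the apex and 9 at the base by limma's test over all probes, against 18.0% and 16.4% of all probes, and 74 did not pass. For Gria4 all 16 probes were higher at the apex, with log2 differences from 1.33 to 1.74, and for Gria3 all 14 were, from 0.54 to 1.12. For Gria2 12 of 15 probes passed as higher at the apex and for Grin1 18 of 22. For Grik4 10 of 18 were higher at the apex and 2 at the base, for Grik5 3 and 3 of 18, and for Grik2 1 and 1 of 14. Neither Grin2b nor its 12 probes passed in either direction, and for Grin2a 2 of 12 probes were higher at the base. Each probe was also tested against the mean of the other probes of its gene, and 28 of the 158 stood apart, 10 toward the apex and 18 toward the base, where 10.4% of all probes did so. The count includes probes that were not well above background. That count ranged from 15 to 37 when an array was left out, and was 16, 16, 15, 15 and 18 without apical replicate 1, 2 or 3 or basal replicate 2 or 4.

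**Figure D3:**
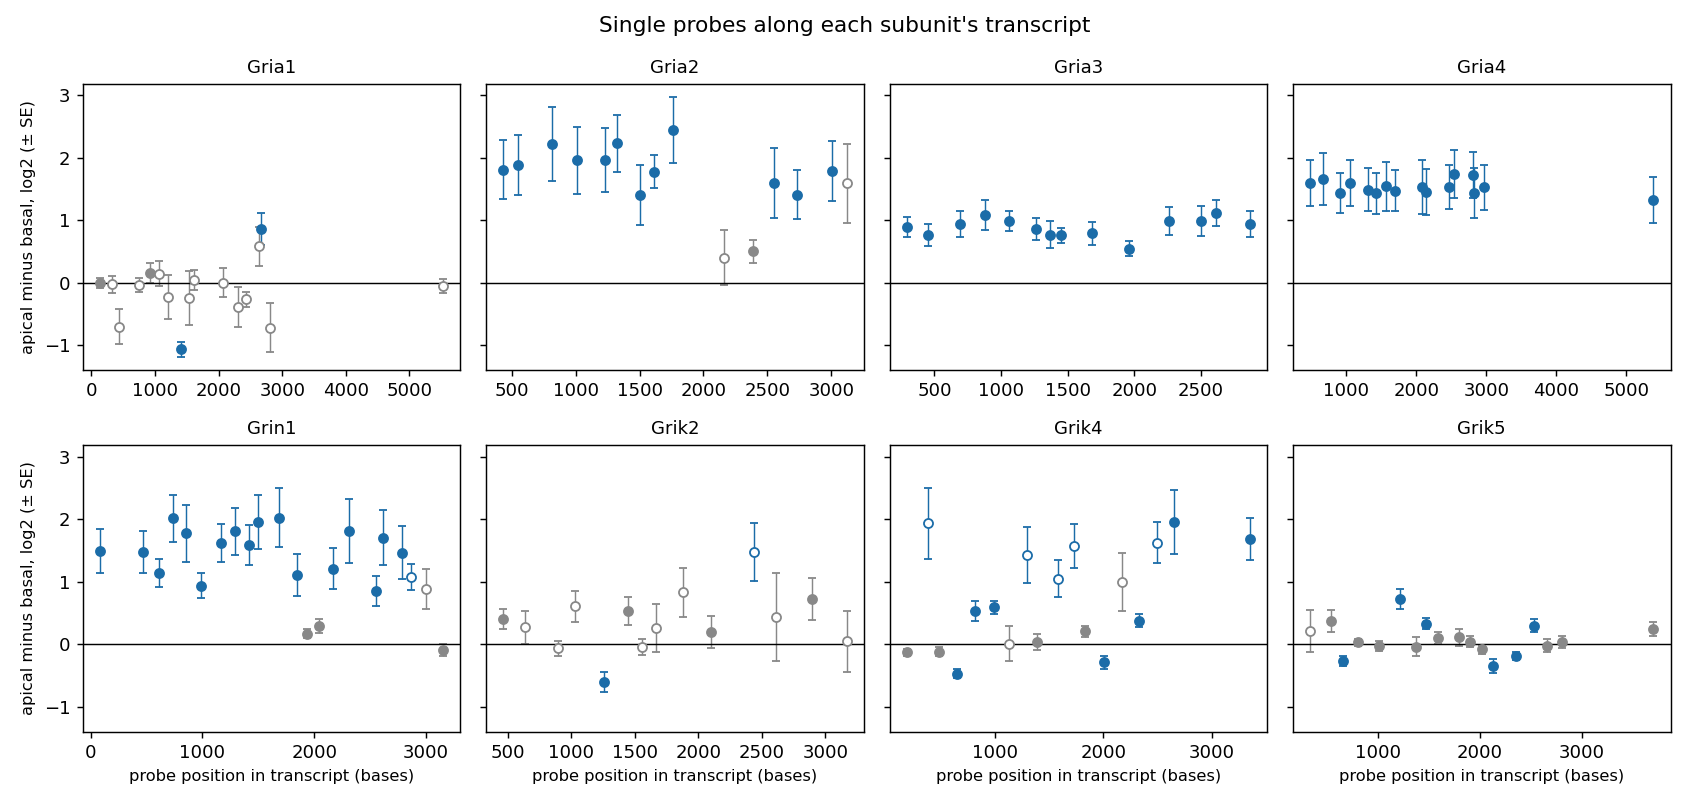
Log2 difference between apex and base (vertical axis, ± SE) of each probe against its position in the transcript (horizontal axis, bases) for 8 subunit genes. Blue marks an adjusted p under 0.05, and filled points were well above background on all 4 apical or all 4 basal arrays. Probes of Gria3 and Gria4 lie in a narrow band above 0, while those of Grik4 range from -0.47 to 1.96.

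Within Gria2 the printed probe at chr3:80514671-80514730 gave 74.8, 76.2, 78.3 and 55.5 on apical arrays and 19.0, 5.5, 28.7 and 17.2 on basal arrays. It was well above background on no basal array, so that the apex was at least 2.56-fold higher, taking as basal level the faintest signal that counted as well above background where that was higher. The adjusted p of 0.0033 by limma's test belongs to the signals as measured and not to this bound. In contrast, the probe at chr3:80510843-80510902 gave 60.1, 19.7, 21.3 and 17.2 on apical arrays and 22.4, 11.5, 37.3 and 14.9 on basal arrays, which overlap, with a log2 difference of 0.40 ± 0.44. It was well above background on 1 apical and 1 basal array, so its small difference is bounded by the background, and its GC content was 35%. A neighboring probe at chr3:80506380-80506439 was well above background on all 12 arrays and differed by 0.50 ± 0.18, with an adjusted p of 0.051.

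Within Grin1 the printed probe at chr2:25168999-25169058 gave 261, 187, 213 and 196 on apical arrays and 53.9, 27.6, 118 and 42.5 on basal arrays, a log2 difference of 2.02 ± 0.38. The probe at chr2:25153149-25153208 gave 231, 216, 218 and 240 on apical arrays and 191, 208, 201 and 205 on basal arrays, a log2 difference of 0.17 ± 0.07, which did not pass (adjusted p 0.090). Each apical array of this probe still lay above each basal array, but its step was 1.17 log2 units smaller than the mean of the other Grin1 probes. The next probe of the transcript, at chr2:25152931-25152990, was the brightest of the gene with means of 1870 at the apex and 1520 at the base, and differed by 0.29 ± 0.11. It is also 1 of the 8 probes that share 20 bases or more with probes of other genes, here Gcn1l1 and Map4k4. The last Grin1 probe in the transcript, at chr2:25147767-25147826, was well above background on all 12 arrays and had a GC content of 78.3%. Its log2 difference was -0.09 ± 0.09, apex minus base. Against the mean of the other Grin1 probes it stood 1.45 log2 units toward the base (adjusted p 0.0179 by limma's test).

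Grik4 held probes that moved in opposite directions, and Gria1 held a bright probe that was higher at the base. The printed Grik4 probe at chr9:42479221-42479280 gave 650, 678, 699 and 706 on apical arrays, 740, 746, 753 and 791 on middle arrays, and 1019, 864, 993 and 906 on basal arrays, rising from turn to turn with no overlap and 0.47 ± 0.07 log2 units higher at the base (adjusted p 0.00044). The Grik4 probe at chr9:42345434-42345493 gave 31.6, 22.2, 34.5 and 27.5 on apical arrays and 13.5, 6.4, 13.6 and 6.2 on basal arrays, without overlap, but it was well above background on 2 apical arrays and no basal array, so the size of its difference is not measured. The brightest Grik4 probe, at chr9:42616607-42616666 near the start of the transcript, had means of 4650 at the apex and 5100 at the base and did not pass. The last Grik4 probe in the transcript, at chr9:42328570-42328629, gave 808, 647, 725 and 653 on apical arrays and 201, 131, 459 and 188 on basal arrays, a difference of 1.69 ± 0.34 log2 units toward the apex, and was well above background on all 12 arrays. The printed Gria1 probe at chr11:57042468-57042527 gave 336, 260, 270 and 299 on apical arrays, 347, 478, 445 and 473 on middle arrays, and 627, 671, 527 and 609 on basal arrays. It was 1.07 ± 0.12 log2 units higher at the base (adjusted p 0.00013), while the other bright Gria1 probes, at chr11:56825331-56825390 and chr11:57003275-57003334, differed by 0.00 ± 0.08 and 0.15 ± 0.16.

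At the flip and flop exons the probes of Gria2, Gria3 and Gria4 were all higher at the apex. The Gria4 flop probe gave 157, 95.0, 116 and 123 on apical arrays and 41.1, 21.3, 70.3 and 28.3 on basal arrays, and the Gria4 flip probe 86.6, 57.0, 96.4 and 61.9 against 37.6, 23.7, 50.3 and 12.4. The log2 differences were 1.73 ± 0.37 for flop and 1.43 ± 0.40 for flip, and neither probe stood apart from the other probes of Gria4 (adjusted p 0.311 and 0.848). The Gria2 flop probe gave 107.3, 74.3, 92.3 and 92.9 against 34.4, 17.2, 73.8 and 31.7, and the Gria3 flip probe 174, 144, 213 and 166 against 75.5, 59.6, 119 and 74.1. In each of these 4 probes the lowest apical array lay above the highest basal array. The Gria1 flip probe, well above background on all 4 apical arrays and no basal array, gave 42.3, 38.8, 56.3 and 45.7 against 27.0, 25.0, 33.5 and 17.1, at least 1.58-fold higher at the apex. The adjusted p of 0.022 by limma's test belongs to the signals as measured and not to this bound. The Gria1 flip probe was identical to the Gria3 flip probe at 54 of 58 overlapping bases. Whether it read Gria1 or another AMPA subunit was not tested. The Gria1 flop probe was well above background on no array.

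**Figure D4:**
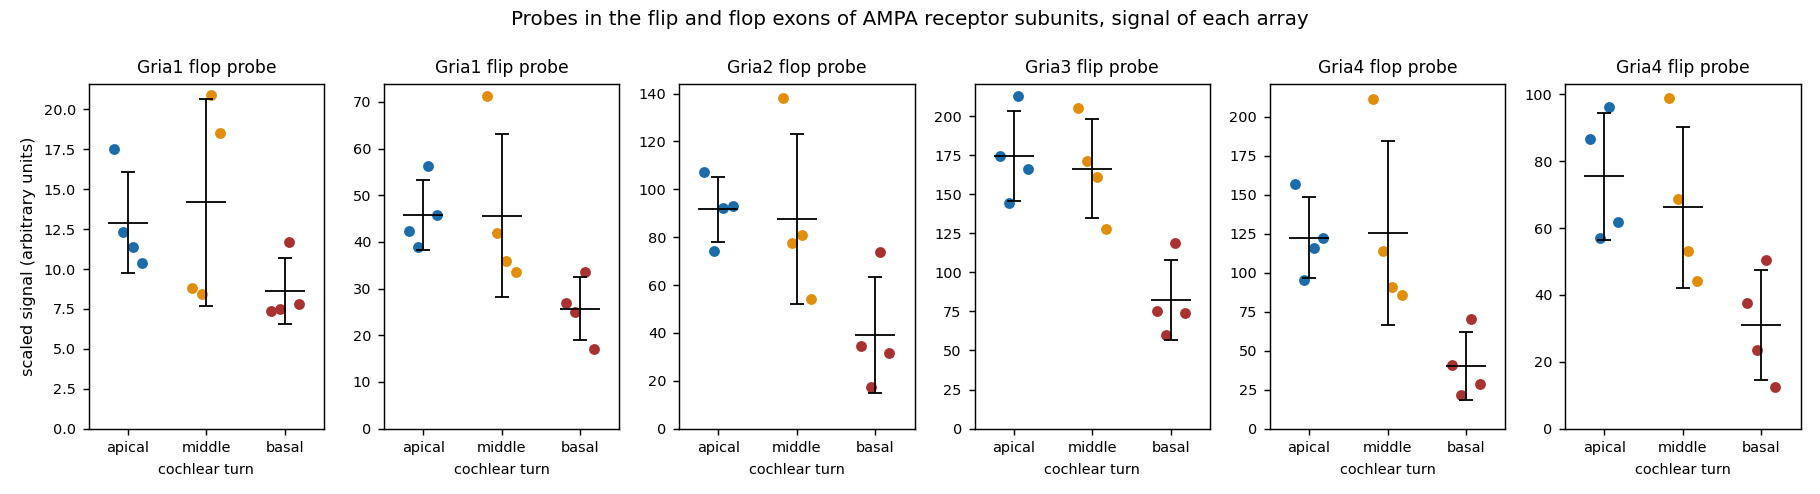
Scaled signal (vertical axis, arbitrary units, from 0) of the 6 probes in the flip and flop exons of AMPA subunit genes on each array, by turn; bars are the mean ± SD of 4 arrays. Apical and basal arrays do not overlap for the Gria2, Gria3, Gria4 and Gria1 flip or flop probes, other than the Gria1 flop probe, which was well above background on no array.

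Other genes of glutamate signaling were counted from lists drawn up by function, beside 17.6% of all genes higher at the apex and 21.6% higher at the base. Of 8 further ionotropic subunit genes, 4 were higher at the apex, 1 at the base (Grin2c, 1.25-fold) and 3 did not pass, with a median log2 difference of 0.40. For this list 2 genes were higher at the apex with normexp background correction or with spike-in scaling. At the base 0 were higher with normexp, 3 with spike-in scaling, and 0 to 1 with an array left out. For Grin2c, 4 of 12 probes were well above background throughout a turn. Grid1, whose product belongs to the family by sequence, was 2.74-fold higher at the apex (log2 difference 1.45 ± 0.11, adjusted p 4.3e-06). It also passed between apex and middle, with a log2 difference of 0.59 (adjusted p 0.0085). Grid1 lay between 72.7 and 78.6 on apical arrays, 39.9 and 59.8 on middle arrays, and 26.5 and 29.4 on basal arrays, so that the turns did not overlap. Of the kainate genes on this list, Grik3 was 1.37-fold higher at the apex. Grik1 also passed, but 1 of its 16 probes was well above background throughout a turn, so no fold is given. Of 7 metabotropic receptor genes, 2 were higher at the apex, Grm7 at 2.48-fold and Grm8 at 2.02-fold. The other 5 did not pass, among them Grm4 at 1.12-fold. The count at the apex was 1 with normexp background correction, quantile normalization or spike-in scaling. It was also 1 without apical replicate 1 or basal replicate 2 or 4. For Grm8, 4 of 9 probes were well above background throughout a turn. No probe of Grm5 was well above background throughout a turn.

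Auxiliary subunits steer receptors to the membrane and shape their gating. Of 13 measured genes, 3 were higher at the apex and 2 at the base, shares near the 17.6% and 21.6% of all genes, and the median log2 difference was 0.07. Cacng2, which encodes the AMPA receptor partner stargazin, was 2.42-fold higher at the apex (log2 difference 1.28 ± 0.37, adjusted p 0.018), with basal arrays between 57.8 and 248 and apical arrays between 232 and 277. Cacng5 followed at 1.89-fold and Cacng7 at 1.60-fold. Cacng4, of the same family of AMPA receptor partners, was 3.39-fold higher at the base (adjusted p 0.00049), from 32.6 to 71.3 on apical arrays and from 145 to 196 on basal arrays. Neto2, a kainate receptor partner, was 3.54-fold higher at the base (adjusted p 1.1e-05), from 58.2 to 70.3 on apical arrays and from 192 to 307 on basal arrays.

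Of 17 postsynaptic scaffold genes, 9 were higher at the apex, 2 at the base (Homer3 and Dlgap4) and 6 did not pass. The median log2 difference of the 17 genes was 0.25. Over all genes, 17.6% were higher at the apex and 21.6% at the base. The scaffold count at the apex was 4 with quantile normalization or scaling to the median, and 5 with normexp background correction. It ran from 6 to 10 with an array left out. Dlg2, which encodes an anchor of glutamate receptors, was 2.11-fold higher at the apex, Homer2 1.81-fold, Camk2b 1.65-fold and Shank2 1.53-fold. Dlg4, which encodes the scaffold protein that is best known at glutamate synapses, differed 1.13-fold with an adjusted p of 0.070. Of 8 genes of glutamate release and uptake, 5 were higher at the apex and 2 at the base, with a median log2 difference of 0.43. The vesicular transporter gene of inner hair cells, Slc17a8, was 3.15-fold higher at the apex (log2 difference 1.65 ± 0.12, adjusted p 3.9e-06), and the transporter genes of neurons, Slc17a6 and Slc17a7, 3.82-fold and 2.76-fold. Slc1a3, a glial and supporting cell gene for glutamate uptake, was 1.42-fold higher at the base. Many of these counts depend on the scaling: with the spike-in probes, 1 auxiliary and 2 scaffold genes were higher at the apex, and 7 auxiliary and 8 scaffold genes at the base.

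Markers of some cell types were mostly higher at the apex, and those of others were mostly higher at the base. Of 12 neuron markers, 9 were higher at the apex, 1 was lower (Prph, which encodes an intermediate filament) and 2 did not pass, and their mean log2 signal ran from 10.38 to 10.71 on apical arrays, from 10.29 to 11 on middle arrays and from 8.52 to 10.23 on basal arrays. The basal arrays gave 9.29, 8.52, 10.23 and 9.0 in the order of their numbers, so basal replicate 3 was the highest and replicate 2 the lowest for the neuron list, as for Gria2, Gria3, Gria4, Grin1 and Grik4. Middle replicate 1 was likewise the highest of its turn for the list and for these 5 genes. This order was not particular to the neuron list. The Schwann cell list gave 9.55, 9.13, 10.01 and 9.4 on the basal arrays, with middle replicate 1 the highest of its turn. The hair cell list gave 8.14, 7.66, 8.29 and 8.25 there, with middle replicate 3 the highest of its turn. All 7 Schwann cell markers and 7 of 8 hair cell markers were also higher at the apex, with the mean of the hair cell list between 9.28 and 9.55 on apical, 9.13 and 9.19 on middle and 7.66 and 8.29 on basal arrays. Of 6 supporting cell markers, 3 were higher at the apex and 2 at the base. With spike-in scaling 1 of the 7 Schwann cell markers was higher at the apex, while the neuron and hair cell counts there were still 9 and 7. In the opposite direction, 7 of 8 markers of the stria vascularis, all 5 of spiral ligament fibrocytes and all 5 of macrophages were higher at the base, the macrophage count being 1 without basal replicates 2 and 3. Of 6 bone markers 1 was higher at the base, of 4 blood markers none passed in either direction, of 5 endothelial markers 1 was higher at the apex and 3 at the base, and of 6 markers of astrocytes and oligodendrocytes 2 were higher at the apex. No marker lacked a probe well above background. The part of cell makeup in the subunit differences was not tested.

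**Figure D5:**
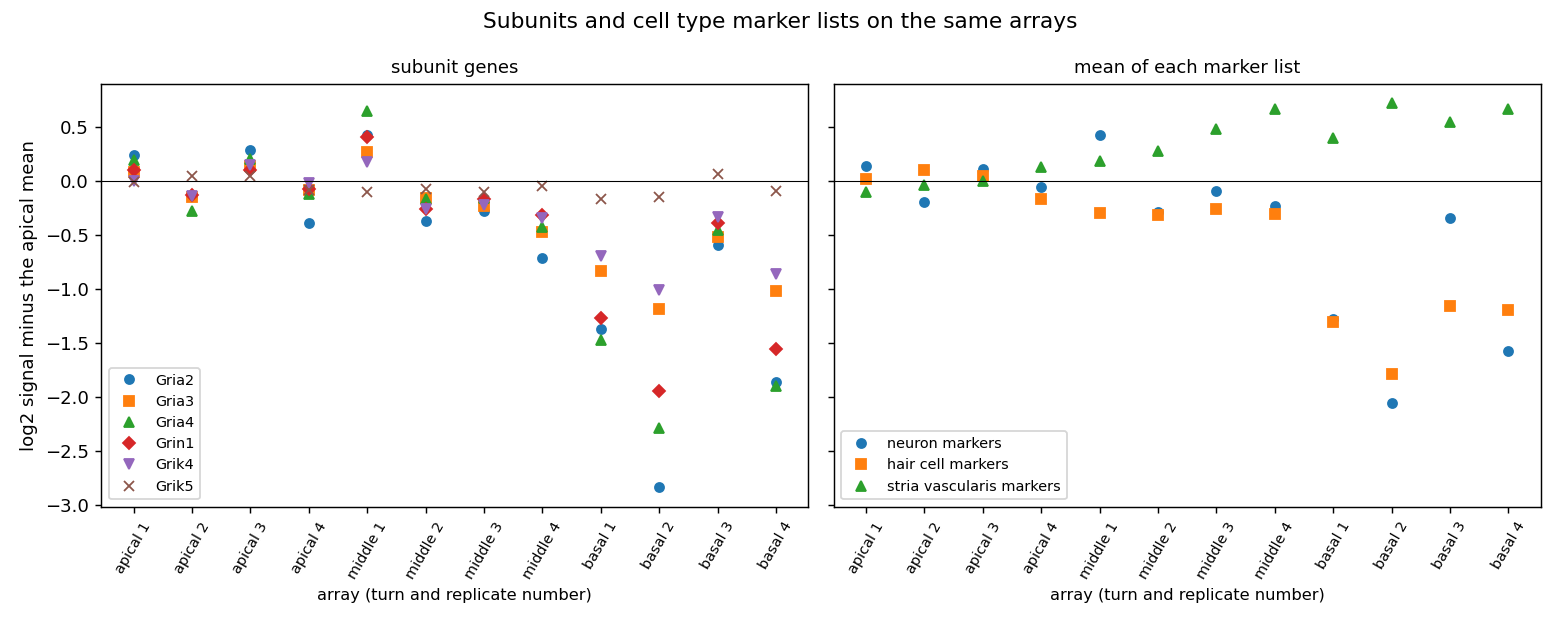
Log2 signal minus the mean of the 4 apical arrays (vertical axis) on each array (horizontal axis), for 6 subunit genes at left and for the mean of 3 marker lists at right. For Gria2, Gria3, Gria4, Grin1, Grik4 and the neuron and hair cell markers, basal replicate 2 is lowest and replicate 3 highest of the base. Grik5 stays near 0 and the stria vascularis markers rise toward the base.

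The genes whose pattern was most like that of the 3 subunits past the F test and 2-fold were read from Pearson correlations over the 12 arrays, among 16502 genes with a probe that was well above background throughout some turn. For Gria2 these were Cntnap1 (r = 0.991), Atp2b3 (r = 0.991) and Syt2 (r = 0.990), for Gria4 Kif5a, Ndrg4 and Grin1 (r = 0.996 each), and for Grin1 Mapk8ip2, Ank1 and Ndrg4 (r = 0.999 each). The arrays fall into turns that share a slide, so these values describe a common pattern of these arrays. From apex to base these genes differed between 1.99-fold for Cntnap1 and 2.94-fold for Ank1, beside 3.17-fold for Gria2.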

How the data were processed

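The members and gene lists were chosen with earlier results of these data known. The authors labeled the RNA with Cy3, hybridized it to single-color exon arrays and read the scans with Agilent Feature Extraction 10.7.3.1. The deposited intensity of each spot is the processed signal, which that software had background-subtracted and detrended, with no normalization between arrays, and probe positions refer to mm9. The value table of the series held the same numbers. Here flagged spots were left out, which removed 119 probes, among them 1 Gria4 probe whose spot was uneven on apical replicate 1. Arrays were scaled to a common 75th percentile and log2 transformed, and the log2 values of a gene's probes were averaged, with no filter. Turns were compared with limma 3.58.1 (lmFit and eBayes, R 4.3.3) in a single fit to the 12 arrays, and p-values were adjusted by Benjamini-Hochberg across 19505 genes or 165865 probes. Probes were set against the rest of their gene where a gene had 3 or more. In simulated data for apex against base, the gene test recovered 184 of 200 genes changed 2-fold with 10 others called, and the probe test 135 of 200 with 4 others. The test of a probe against its gene recovered 121 of 195 with 10 others. Simulated noise was independent for each gene or probe and few were changed, so these counts need not hold for the measured arrays.

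Named genes were the 10 members and, from each list, those past the F test and 2-fold with up to 4 of the largest differences; Grin2c, Cacng7, Homer3, Dlgap4, Dlg4 and Prph were named after their values were seen. The list genes Grm2, Shisa9, Shank1, Grip2, Sox10, Otogl and Hbb-b2 were not analyzed here, as no probe carried these names, and some list genes are not reported here. RefSeq accessions of probes were matched to gene symbols with RefSeq's table for GRCm38.p6 (231 of 231). Flip and flop forms were read by translating the probes. Nothing in the sources ties same-numbered samples of different turns to a mouse. P-values measure the spread between these arrays.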

Additional observations from a re-analysis of the deposited data

How the results depend on the processing

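Gria2, Gria3, Gria4 and Grin1 were higher at the apex than at the base under all 26 alternatives, with log2 differences from 0.56 to 2.02, 0.40 to 1.01, 0.93 to 1.89 and 0.65 to 1.73 and adjusted p up to 0.023, 0.047, 0.017 and 0.013. Between middle and base Gria3, Gria4 and Grin1 passed in all 26, Grik2 in 24, and Gria2 and Grik4 in 21 each. Small differences between apex and base changed sign: Grin2a (-0.07 to 0.05 with an array left out) was at 0 with normexp, 0.01 without apical replicate 4 and 0.05 without basal replicate 4; Grik5 was at -0.02 with quantile normalization, -0.03 scaled to the median, -0.40 with spike-in probes and -0.08 with the mean linear signal; Grik2 was at -0.12 with spike-in probes and Grik4 at -0.01 with the mean linear signal. Scaling to the median moved the median of all genes to -0.15.

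From 5 to 8 subunit genes passed between apex and base, from 4 to 6 of them higher at the apex (4 with spike-in probes and with the mean linear signal), and from 4 to 6 between middle and base. Between apex and middle, where the main count was 0, 1 gene (Grin2a) passed with scaling to the median, 1 with the mean linear signal and 4 with spike-in probes, and 0 to 1 with an array left out (Grik2 without apical replicate 3, Grin2a without basal replicate 4). With an array left out, 3 to 4 genes passed the F test and 2-fold, 73 to 86 probes passed, 15 to 37 stood apart, and 0 to 8 subunit pairs passed; the F test and 2-fold gave 0 with normexp, and the pairs gave 0 with quantile normalization, the median of probes and the mean linear signal. In the pairs adjustment from a smallest p of 0.0286 sets this; elsewhere the cause was not tested. Leaving out basal replicates 2 and 3 together, and arrays for the pairs, were chosen after seeing the data.

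The replicate number as a block gave 6, 0 and 6 genes, 3 past the F test and 2-fold, and 86 and 28 probes. In their deviations from the turn means same-numbered arrays correlated between -0.037 and 0.227, with a median of 0.102 against -0.018 for different numbers, and 8 of 12 matched their own number best, a hint of pairing. As 6 of the 12 same-number correlations were over 0.1 and not all, the numbers were not taken as pairs. For dim genes such as Gria1, Grin2a and Grin2b signal over background limits what can be seen. No group of 4 arrays of a member, 30 in all, held an array far outside the others by Dixon's test.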
